A study of Mus musculus with 8 samples.

Results

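The regions described here are H2AK119ub peaks that were called in Eed cKO epidermis at places where the control peak list held none, away from the ends of protein-coding genes. A peak of the Eed cKO list was included when it shared 0 bp with every control peak and met no window of 2 kb on either side of the start or end of an mm10 RefSeq protein-coding gene. Of 2541 Eed cKO peaks, 760 shared no base with a control peak (29.9%), and 472 of these also lay away from gene ends, 18.6% of the Eed cKO list. These 472 regions are called new peaks below, in the sense of this rule and no other: 206 lay inside the span of a protein-coding gene and 266 lay outside all such spans. Because they were chosen by the positions of the peaks in the same pair of lists, their number and their distance from control peaks are descriptions and carry no test.

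H2AK119ub was profiled by chromatin immunoprecipitation and sequencing in epidermal progenitors of the back skin of newborn mice, at postnatal day 0, isolated by flow cytometry as EpCAM+ Sca1+ cells with high α6-integrin. The Eed cKO mice carried the genotype Eed-/- and were represented by 2 H2AK119ub libraries, and the control mice, labelled only as control, by 2 more. Each pair of libraries gave 1 deposited peak list, with positions alone. Values per library were not used here, so no replicate error was computed. The labels name neither the Cre driver nor the animals or litters behind the libraries. The control list held 4621 peaks. Read depth is unknown, and a region on one list alone can reflect more mark, more reads or a different threshold in that list, which cannot be told apart here. The Eed gene and the genes that mark basal progenitors or the sort (Krt5, Krt14, Trp63, Itga6, Epcam and Ly6a) carried no peak at an end in either list and held no new peak, and peak positions give no level of these genes.

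Polycomb repressive complex 1 (PRC1) places a single ubiquitin on a lysine near the tail end of histone H2A, and Polycomb repressive complex 2 (PRC2), of which Eed is a core subunit, methylates lysine 27 of histone H3. Canonical PRC1 binds methylated H3K27 through its chromobox subunits, whereas variant PRC1, which holds Rybp or its paralogue, reaches chromatin without that methylation, in many cells at CpG islands. Both marks are best known at the promoters of developmental regulators, and the regions below are those that lie elsewhere.

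A small number of new peaks covered an annotated transcription start that is not the outer end of a protein-coding gene, either an internal start or the start of a long non-coding RNA (lncRNA). The 250 bases before 6 such starts follow, from RefSeq on mm10, read 5′ to 3′ on the strand of the transcript, with every CG dinucleotide in capitals. They are shown because they range from near the median CpG content of all starts to the highest found under new peaks, and starts with fewer CG are described further on: the first 4 lie inside gene spans and hold more CG than the median start, and the last 2 lie outside spans beside Hes1 and Slc7a5. They are the internal start of Dgkz (diacylglycerol kinase zeta; chr2:91963564-91963813, minus strand), an internal start of Rap1gap (a GTPase activator of Rap1; chr4:137681377-137681626, plus strand), the lncRNA 1700125G02Rik within Epha10 (chr4:124894783-124895032, minus strand), the lncRNA Gm30543 within Ltbp4 (chr7:27329560-27329809, plus strand), the lncRNA 4632428C04Rik (chr16:30008417-30008666, plus strand) and the lncRNA Gm26812 (chr8:121856180-121856429, plus strand).
Dgkz: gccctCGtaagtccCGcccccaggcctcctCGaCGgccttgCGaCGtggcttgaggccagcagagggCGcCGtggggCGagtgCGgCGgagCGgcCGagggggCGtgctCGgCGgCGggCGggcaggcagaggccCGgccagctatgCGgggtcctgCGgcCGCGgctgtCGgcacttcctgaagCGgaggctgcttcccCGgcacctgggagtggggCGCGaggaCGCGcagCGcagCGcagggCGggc
Rap1gap: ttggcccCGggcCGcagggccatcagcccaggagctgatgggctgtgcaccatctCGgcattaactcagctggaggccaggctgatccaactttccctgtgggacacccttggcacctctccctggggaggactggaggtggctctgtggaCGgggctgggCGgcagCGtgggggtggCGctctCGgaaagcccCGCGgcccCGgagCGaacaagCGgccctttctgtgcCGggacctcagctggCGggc
1700125G02Rik: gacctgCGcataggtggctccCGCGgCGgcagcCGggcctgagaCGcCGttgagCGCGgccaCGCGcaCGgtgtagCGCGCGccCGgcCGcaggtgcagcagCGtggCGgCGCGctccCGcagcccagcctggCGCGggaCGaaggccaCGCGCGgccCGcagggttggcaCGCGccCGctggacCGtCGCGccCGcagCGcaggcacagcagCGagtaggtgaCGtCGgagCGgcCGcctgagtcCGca
Gm30543: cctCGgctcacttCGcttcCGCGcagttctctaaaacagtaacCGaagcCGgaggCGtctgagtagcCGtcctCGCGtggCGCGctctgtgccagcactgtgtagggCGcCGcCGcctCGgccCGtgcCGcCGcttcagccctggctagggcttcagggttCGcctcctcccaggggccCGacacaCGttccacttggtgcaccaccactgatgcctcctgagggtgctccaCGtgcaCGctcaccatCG
4632428C04Rik: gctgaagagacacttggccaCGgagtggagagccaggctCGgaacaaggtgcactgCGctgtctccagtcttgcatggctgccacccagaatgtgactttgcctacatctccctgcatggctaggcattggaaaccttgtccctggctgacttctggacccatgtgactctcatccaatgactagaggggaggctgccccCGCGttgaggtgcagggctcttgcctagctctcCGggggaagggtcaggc
Gm26812: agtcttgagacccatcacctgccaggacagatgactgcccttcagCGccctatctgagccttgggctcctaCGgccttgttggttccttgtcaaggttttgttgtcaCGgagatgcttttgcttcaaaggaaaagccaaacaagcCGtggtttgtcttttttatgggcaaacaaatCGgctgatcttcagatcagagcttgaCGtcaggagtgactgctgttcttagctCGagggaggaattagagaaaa

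The motif counted was CG, which reads the same on both strands. These stretches held 33 (Dgkz), 15 (Rap1gap), 43 (1700125G02Rik), 25 (Gm30543), 6 (4632428C04Rik) and 7 (Gm26812) CG dinucleotides. Over the 32851 annotated starts in the table the median was 6, and 92.1% held at least 1. As many as at Dgkz stood before 4.03% of all starts, and as many as at 1700125G02Rik before 0.712%. The pair outside gene spans was thus near the median, while the stretches at Dgkz and in Epha10 were among the CpG-richest in the table.

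Tabulated starts were rare under new peaks, which follows in part from the rule and from gaps in the table of starts. The windows at gene ends keep out the outer starts of protein-coding genes, so only internal starts and lncRNA starts could be covered. Of the 461 new peaks outside chromosome 18, for which no starts were tabulated, 29 covered at least 1 start (6.29%, 95% Wilson interval 4.42 to 8.89). Starts were tabulated for 17492 of the 21887 protein-coding genes, and some genes on other chromosomes, Prkce and Cdh4 among them, had none. Starts of such genes could not be counted in any class of peak, so these shares are lower bounds. The same share was 31.7% (26.6 to 37.3) for Eed cKO peaks without control overlap at gene ends, 15.3% (12.8 to 18.2) for Eed cKO peaks that overlapped a control peak away from gene ends, and 8.98% (7.67 to 10.5) for control peaks without Eed cKO overlap away from gene ends. The contrast with peaks at gene ends is largely set by the rule, and the interval of the control-only peaks overlaps that of the new peaks. All intervals in this report cover counting error only. The 29 new peaks covered 36 starts, 9 of them from 7 protein-coding genes and 27 from 23 lncRNA genes. Counted in 300 bases around the start (250 before, 50 after), the 9 protein-coding starts had a median of 6 CG (4 to 22), against 13 over all 21263 protein-coding starts and 22 under Eed cKO peaks shared with control away from gene ends. The 9 are internal starts, whereas the 21263 include outer ones, so the medians of 6 and 13 belong to unlike sets. The 27 lncRNA starts had a median of 5, against 4 over all 11588 lncRNA starts. Besides Dgkz and Rap1gap, the protein-coding genes concerned were Ralgds, Lrp8, Adam8, Igf1 and Phc2, named here after their values were seen. Ralgds, a regulator of Ral GTPases, had 19 CG at its covered start, and Phc2, a polyhomeotic subunit of PRC1, had 2.

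The new peaks were mostly of modest width. Those inside gene spans measured 0.661 to 40.3 kb, with a median of 3.45 kb (3.16 to 3.85), and those outside measured 0.655 to 16.2 kb, with a median of 3.37 kb (3.06 to 3.60). In all, 23 were wider than 10 kb, 8 inside spans and 15 outside. Together they covered 2.00 Mb, 0.891 Mb inside spans and 1.11 Mb outside. Eed cKO peaks that overlapped a control peak away from gene ends had a median of 4.79 kb (4.56 to 5.28), and control peaks without Eed cKO overlap away from gene ends had a median of 3.17 kb (3.04 to 3.32). The new peaks were therefore nearer in width to the control-only regions than to the shared ones. A wide peak is also more likely to touch a control peak, so width is tied to the rule and was not tested.

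**Figure D1:**
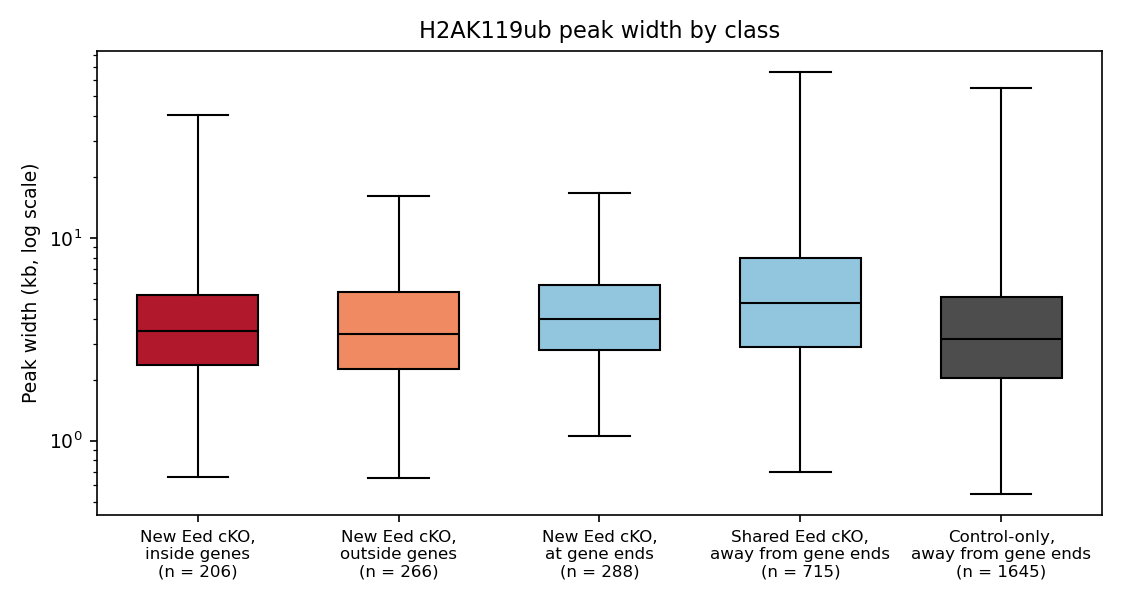
Peak width in kb (log axis) for 5 classes of H2AK119ub peak, with the median as a line, the quartiles as a box and the full range as whiskers. The medians of new peaks, 3.45 kb inside genes and 3.37 kb outside, lie below the 4.79 kb of shared Eed cKO peaks and close to the 3.17 kb of control-only peaks.

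New peaks lay at widely differing distances from control peaks, and no distance expected for regions placed at random was computed. The median distance to the nearest control peak was 60.5 kb (49.9 to 77.1), with 50.2 kb (39.8 to 65.2) for those inside spans and 72.0 kb (51.3 to 90.5) for those outside. Only 5 new peaks lay within 1 kb of a control peak, 52 within 5 kb and 80 within 10 kb, while 215 (45.6%) lay within 50 kb and 14 lay more than 1 Mb away. The peaks just inside the rule were one between Pebp4 and Egr3 (chr14:70063070-70066812), 6 bp from a control peak, one inside Prkce (chr17:86273258-86275599), 299 bp away, and one near Nectin1 (chr9:43874750-43877406), 446 bp away. Just outside the rule, the Eed cKO peaks away from gene ends that shared the fewest bases with control shared 125, 610 and 623 bp. The farthest were inside Atp2b3 on chromosome X, a plasma membrane calcium pump gene, 2.52 Mb from a control peak, beside Sema6d, a semaphorin gene, 1.83 Mb, and inside Slc16a7, a monocarboxylate transporter gene, 1.78 Mb. On the gene side, the included peaks closest to a gene end were 2044 bp from Ddx20, 2102 bp from Adam8 and 2133 bp from Ccnd1, and the closest left out were 1982 bp from Gm44812 and 1941 bp from Wnt9b and from Yap1.

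**Figure D2:**
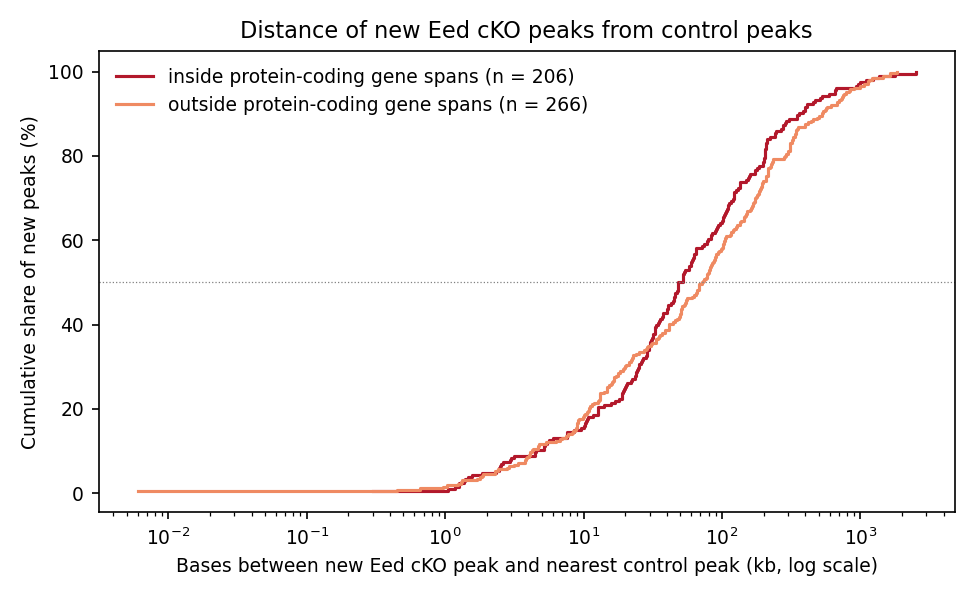
Cumulative share of new Eed cKO peaks (%) by the number of bases to the nearest control peak (kb, log axis), for 206 peaks inside and 266 outside gene spans. The curves cross 50% near 50.2 kb inside and 72.0 kb outside, and few peaks lie within 1 kb.

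The count varied with which peaks each list was allowed to keep. Dropping control peaks can only raise it or leave it unchanged, and dropping Eed cKO peaks can only lower it or leave it unchanged. When the narrowest control peaks were dropped until both lists were equally long, 753 Eed cKO peaks met the rule and their median distance to a control peak was 131 kb. When only Eed cKO peaks at or above their list's median width were kept, 127 met it, with a median distance of 35.5 kb. The share inside gene spans stayed between 41.2% and 44.2% under every alternative for which it was computed.

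That share, 43.6% (39.2 to 48.2), was also close to the share among other peaks away from gene ends. It was 42.2% (38.7 to 45.9) of the 715 Eed cKO peaks that overlapped a control peak and 41.9% (39.6 to 44.3) of the 1645 control peaks that met no Eed cKO peak. New peaks outside spans lay at a median of 34.5 kb (28.9 to 43.6) from the nearest protein-coding gene, with 47 of 266 within 10 kb and 163 (61.3%) within 50 kb. An lncRNA gene span was met by 27 of 206 new peaks inside protein-coding spans (13.1%) and by 66 of 266 outside (24.8%). Counting non-coding genes of every kind, 20.6% (17.2 to 24.4) of all new peaks met one. Away from gene ends this share was 29.8% (26.6 to 33.2) for Eed cKO peaks shared with control and 24.5% (22.5 to 26.6) for control-only peaks. No new peak met an annotated miRNA gene, and the share of other peaks that did was not computed.

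Some new peaks lay near one another, and no count of runs was computed for other peaks or for regions placed at random. Joined across gaps of at most 50 kb, 74 of the 472 fell into 33 runs, and across gaps of at most 10 kb, 25 fell into 11 runs. The next Eed cKO peak lay at a median of 79.9 kb (60.7 to 94.1). For 75 new peaks it lay within 10 kb, and it was then another new peak in 24 cases, a peak shared with control in 43 and a peak without control overlap at a gene end in 8. These counts are to be read beside the make-up of the 2541 Eed cKO peaks. Peaks shared with control were the largest part, 715 away from gene ends and 1066 at them, and 288 at gene ends had no control overlap. Of the 232 protein-coding genes nearest to a new peak outside spans (1.06% of all), 210 were nearest to 1 new peak, 16 to 2, 3 to 3 (Hes1, Pou3f1 and Socs3), 2 to 4 (Cd83 and Zfp703) and 1, Irx2, to 7. Cd83, Socs3 and Zfp703 were named after these counts were seen.

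Irx2, an Iroquois homeobox transcription factor gene, had the largest group. The 7 new peaks measured 3.59, 7.58, 3.13, 12.1, 11.1, 3.12 and 2.52 kb, in order of position, and summed to 43.1 kb within a run of 117 kb on chromosome 13. They began 30.3 kb from the lower-numbered end of Irx2 and reached 148 kb from it, in the interval between Irx2 and Irx4. The widest was chr13:72698989-72711043. Between 281 and 396 kb separated them from the nearest control peak. The Irx2 gene itself carried a 16.6 kb Eed cKO peak at its end (chr13:72629315-72645952) with no control overlap, which the window at gene ends leaves out of the 472. Irx4, a paralogue, carried a peak in both lists, 19.7 kb wide in Eed cKO and 6.41 kb wide in control.

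Pou3f1, a POU homeobox transcription factor gene that suprabasal keratinocytes express, had 5 new peaks on its lower-numbered side before the next gene, Rragc, the farthest 456 kb from Pou3f1. The 2 farthest lay nearer to Rragc, and Pou3f1 was the nearest gene of the other 3. They measured 14.4, 8.71, 2.09, 10.5 and 8.40 kb from the farthest to the nearest. The nearest lay 15.5 kb from the gene, and the distances to a control peak were 232, 190, 45.6, 68.8 and 10.2 kb in the same order. The Pou3f1 gene end carried a 1.85 kb Eed cKO peak, and a 4.40 kb control peak lay beside it without overlap. Between the new peaks stood a pair of peaks shared by both lists, of 5.53 and 4.88 kb in Eed cKO and 2.72 and 2.27 kb in control.

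Hes1, a repressor that Notch signalling induces, had 5 new peaks on its lower-numbered side, the farthest 246 kb from the gene, of 7.40, 3.61, 3.53, 8.96 and 2.85 kb from the farthest to the nearest. The 2 farthest lay nearer to Opa1, the next gene on that side, and Hes1 was the nearest gene of the other 3. The 8.96 kb peak (chr16:30002638-30011596) held the start of the lncRNA 4632428C04Rik printed above. Unlike Irx2, Hes1 itself was marked in both lists, by Eed cKO peaks of 6.16 and 7.88 kb and by a control peak of 10.5 kb that met both.

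Prkce, which encodes protein kinase C epsilon, was the only gene whose span held 3 new peaks. The widest of all 472 was among them, at 40.3 kb (chr17:86587084-86627337), 123 kb from the nearest control peak and 11.4 kb from a further new peak of 2.81 kb. The remaining one, of 2.34 kb, stood 299 bp from a 4.86 kb control peak that the next Eed cKO peak, of 2.31 kb, overlapped. Neither end of Prkce carried a peak in either list. Further along chromosome 17, a 3.90 kb new peak lay between Prkce and Epas1, a hypoxia-inducible factor gene, and a 3.22 kb one lay inside Epas1, whose end carried a peak in both lists.

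**Figure D3:**
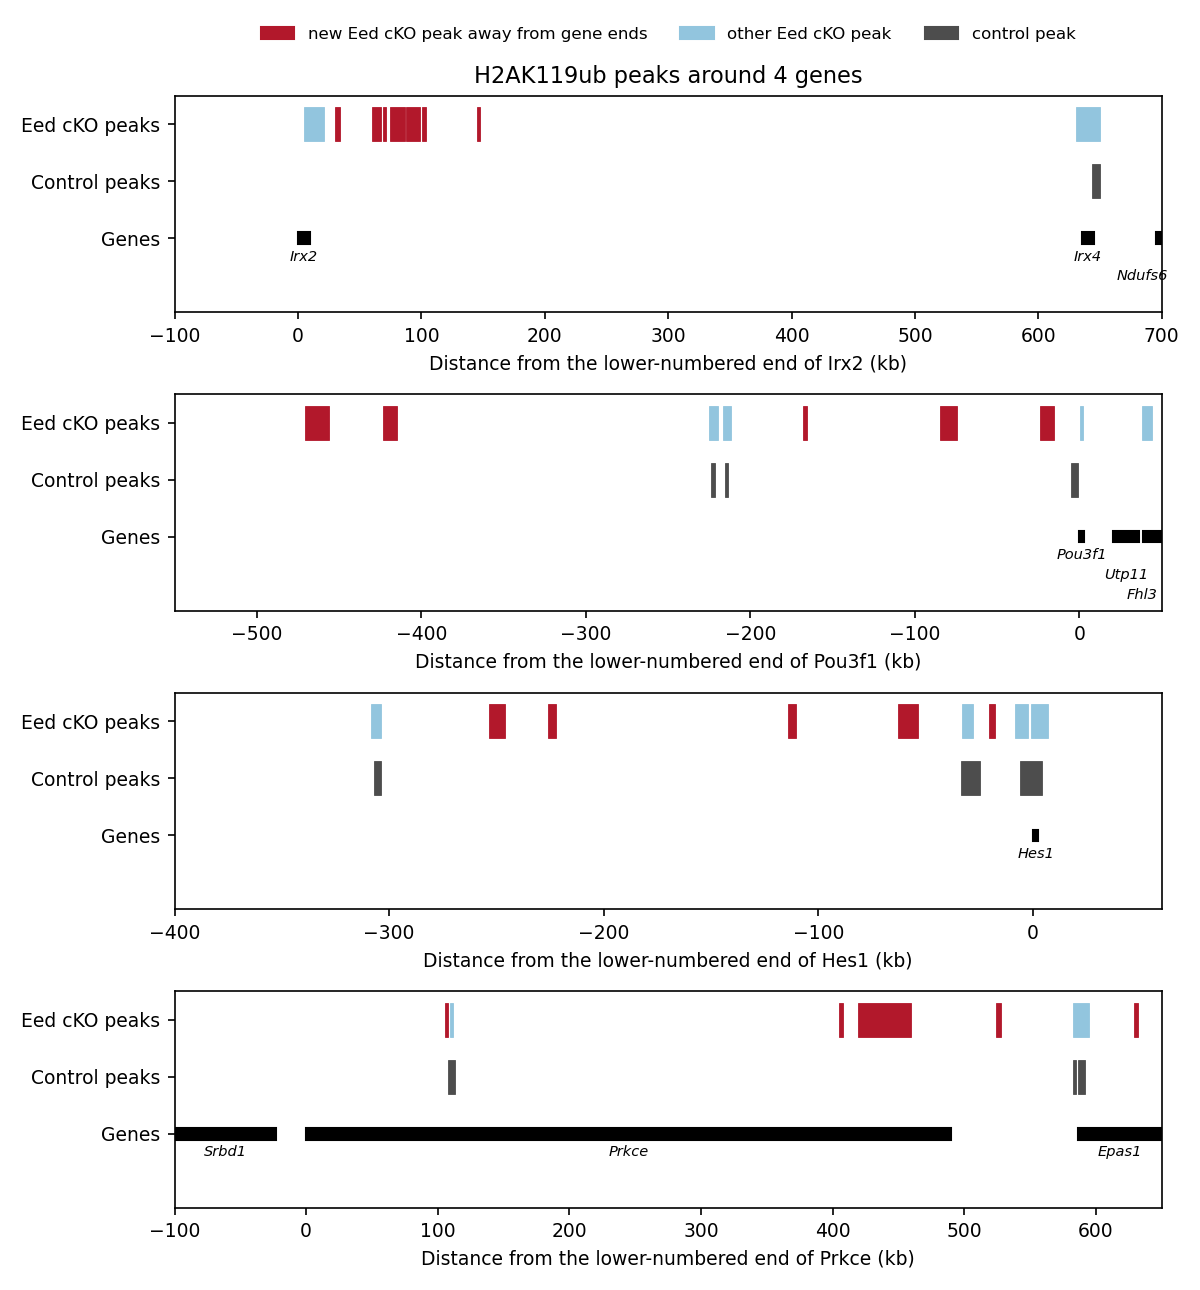
H2AK119ub peaks in Eed cKO (upper row of each panel, new peaks in red, other peaks in blue) and in control (middle row, grey) around Irx2, Pou3f1, Hes1 and Prkce, with protein-coding genes in the lower row. The x axis gives the distance in kb from the lower-numbered end of the gene. The red peaks include the 7 beside Irx2 and the 40.3 kb peak inside Prkce. No red peak in any panel has a control peak beneath it, because the rule that defines new peaks requires this.

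The 206 new peaks inside spans fell in 185 genes, 0.845% of the 21887 protein-coding genes. Of these host genes 165 held 1 new peak, 19 held 2 and Prkce held 3. The genes with 2 and the largest summed width were Cux1 (23.5 kb), Camta1 (18.4 kb) and Shisal1 (13.6 kb, named after its value was seen). Host genes were long: their median span was 87.0 kb (66.2 to 107), against 17.2 kb for all protein-coding genes and 31.8 kb for the 14342 genes at least as long as the shortest host, which spans 9.27 kb. A gene under 20 kb held a new peak in 14 of 11848 cases (0.118%), and a gene of 200 kb or more in 43 of 990 (4.34%, 3.24 to 5.80). A span has more room the longer it is, and a short gene lies largely within the windows at its ends, so this rise with length is partly set by the rule.

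**Figure D4:**
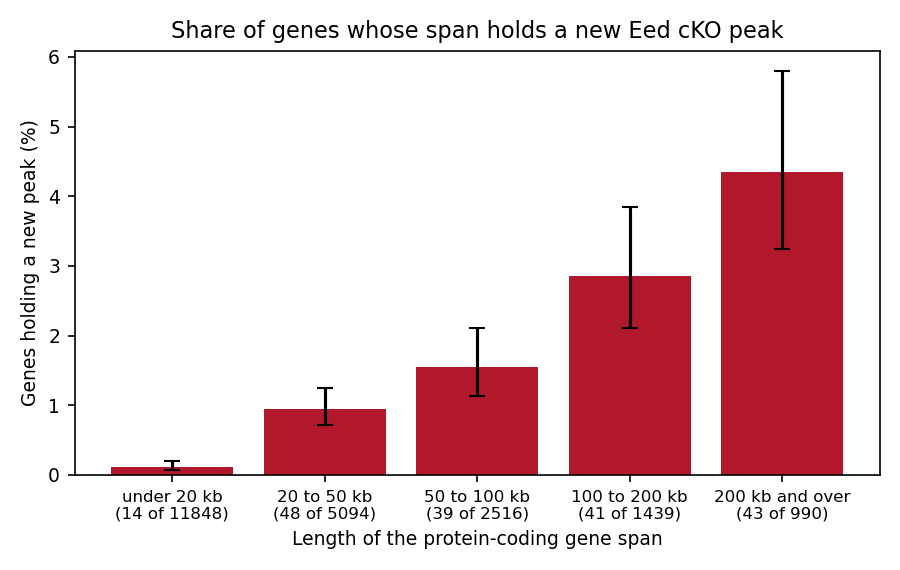
Share of protein-coding genes (%) whose span held at least 1 new Eed cKO peak, by length of the span, with 95% Wilson intervals and the counts under each bar. The share is 0.118% below 20 kb and 4.34% at 200 kb and over.

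Within their hosts the new peaks lay in all parts of the span, apart from the 2 kb at each end. Strand was known for 140 hosts, which held 153 new peaks. From the 5′ start to the 3′ end the 5 equal parts of the span held 23, 40, 25, 33 and 32 of the peaks' middles. The median distance from the host's start was 27.5 kb (19.8 to 43.2), 35 peaks began within 10 kb of it and 64 within 20 kb. The rule leaves out those 2 kb, so the counts in the outer parts and the distances from the start are partly set by it. Exons and introns were not annotated in the sources used, so a peak's position is given along the span only.

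The widest new peaks inside genes were in Prkce (40.3 kb), Cdh4 (16.8 kb, a classical cadherin), Cux1 (16.6 kb, a homeodomain factor), Lrmda (15.2 kb) and Tgm5 (13.4 kb). They were followed by Lrp8 (11.7 kb, a reelin receptor), Camta1 (11.0 kb, a calmodulin-binding transcription activator), Rap1gap (10.3 kb), Nol10 (8.92 kb) and Galnt5 (8.67 kb). The next were Smad3 (8.64 kb, a transducer of TGF-β signals), Grhl3 (8.63 kb), Ttc28 (8.46 kb), Pitpnc1 (8.21 kb) and Wnt3 (8.05 kb). Their surroundings in the control list differed widely. Tgm5, a transglutaminase of the cornified envelope, stood 207 kb from any control peak (new peak chr2:121066131-121079528), and its end carried a second Eed cKO peak, of 14.4 kb, also without control overlap. Cux1 lay in a stretch dense with peaks in both lists: its 16.6 kb new peak (chr5:136255769-136272395) filled a gap between shared peaks, 0.874 kb from the next Eed cKO peak and 2.45 kb from the nearest control peak. Grhl3, a grainyhead-like factor needed for the epidermal barrier, had an 8.63 kb new peak (chr4:135560491-135569116) 5.19 kb from an 8.34 kb control peak. That control peak lay inside the Grhl3 span as well, under a 12.9 kb Eed cKO peak.

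Outside genes, the widest new peak measured 16.2 kb (chr2:172807933-172824125), 43.9 kb from Bmp7, a BMP ligand gene, with Tfap2c on its other side and a control peak 2.40 kb away. A 14.6 kb peak (chr12:109434284-109448836) lay between Begain and Dlk1, an imprinted gene, at 3.65 kb from Dlk1 and 1.31 kb from a control peak across that gene's end. The 14.4 kb peak between Rragc and Pou3f1 came next. A 13.9 kb peak between Gm42048 and Slc7a5, an amino acid transporter gene, covered 3 starts of the lncRNA Gm26812 and was 195 kb from a control peak. The remaining ones in order were 13.6 kb (between Gm29958 and Hs3st3b1), 12.6 kb (Disc1 and Sipa1l2), 12.1 kb (Irx2 and Irx4), 12.0 kb (Prok2 and Rybp), 11.3 kb (Tbc1d1 and Gm38457) and 11.1 kb (Cebpa and Slc7a10). The first 2 of these 10 peaks thus adjoined control peaks, and others such as those at Slc7a5 and Tbc1d1, 459 kb away, did not.

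The ends of the host genes were marked at a higher share than those of protein-coding genes at large, in both lists. An Eed cKO peak lay at an end of 45 of the 185 hosts (24.3%, 18.7 to 31.0), against 7.11% of the 14342 genes of at least the shortest host's length and 7.40% of all protein-coding genes. A control peak lay at an end of 67 hosts (36.2%, 29.6 to 43.4), against 12.0% of the 14342 genes and 11.7% of all genes. By combination, 34 hosts had an end peak in both lists (18.4%, against 5.71% of all genes) and 33 in control alone (17.8%, against 5.94%). Another 11 had one in Eed cKO alone (5.95%, against 1.70%), and 107 had one in neither (57.8%, against 86.7%). A gene without an end peak can still hold one further in. A control peak lay somewhere in the span of 93 hosts (50.3%), against 13.7% of the 14342 genes and 12.2% of all genes. With the shortened control list 287 genes were hosts and 27.9% had a control peak at an end, and with the wider Eed cKO peaks alone 53 were hosts and 45.3% had one. The 11 with an Eed cKO peak alone at an end were Tgm5, Grhl3, Foxn1 and Epha10, and, named after the count was seen, Adam8, Nfam1, Padi2, Padi4, Sipa1l3, St3gal3 and Zan. At Epha10 and Grhl3 an Eed cKO peak at an end overlapped a control peak that lay beyond the 2 kb window. Control peaks also covered 4916 bp of the Foxn1 span. Eed cKO alone thus refers to the windows at gene ends, not to the whole gene. Padi2 and Padi4 are peptidylarginine deiminase genes. Within length classes the share with a control peak at an end was 46.2% (31.6 to 61.4) for hosts of 50 to 100 kb, against 12.4% of all genes of that length. It was 29.3% (17.6 to 44.5) for hosts of 100 to 200 kb, against 15.8%, and 44.2% (30.4 to 58.9) for hosts of 200 kb and over, against 23.5%. Host genes of each length class thus had control-marked ends at a higher share than all genes of that class, in a comparison drawn from the lists that defined the new peaks and not tested.

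**Figure D5:**
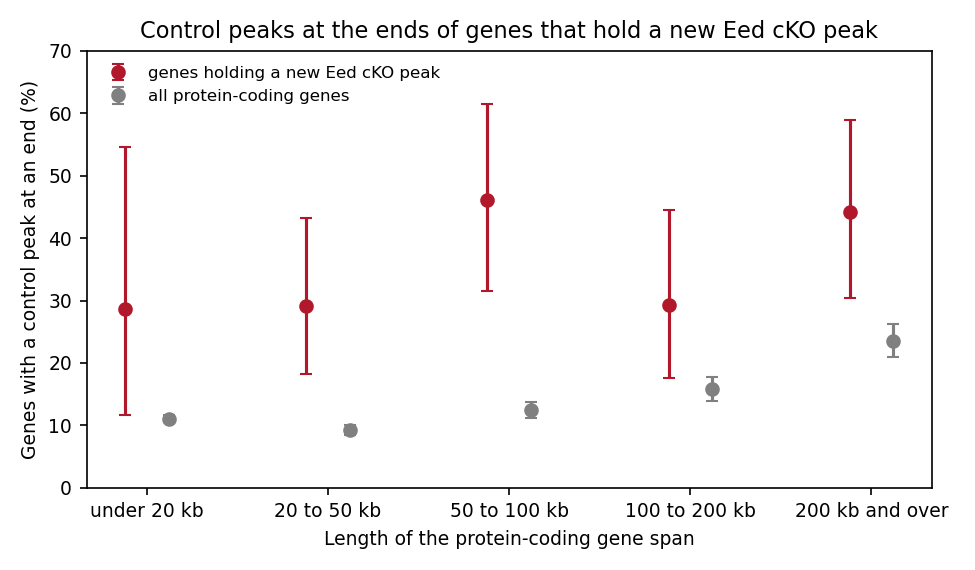
Share of genes (%) with a control H2AK119ub peak within 2 kb of an end, by length of the gene span, for genes holding a new Eed cKO peak (red) and for all protein-coding genes (grey), with 95% Wilson intervals. The red points lie above the grey ones in all 5 length classes, for example 44.2% against 23.5% at 200 kb and over; the intervals overlap at 100 to 200 kb.

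Gene lists of the tissue and of Polycomb biology were described by how many of their members held a new peak or were the nearest gene to one outside spans. Over all protein-coding genes these shares were 0.845% and 1.06%, and 1.86% were either. Several lists hold longer or more often marked genes than the average, and the lists were drawn up with earlier results of these data known, so the counts are no evidence that a list stands apart.

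Of 38 hair follicle and appendage genes, whose median span is 25.0 kb, 4 held a new peak (10.5%) and 5 were nearest to one, 8 in all. Cux1 held 16.6 and 6.89 kb peaks. Wnt3, a WNT ligand, held one of 8.05 kb, Gata3, a zinc finger factor of the inner root sheath, one of 4.69 kb, and Foxn1, the gene mutated in nude mice, one of 2.19 kb. The nearest genes were Wnt7b, at 8.76 kb from a 7.79 kb peak, Nfatc1, a factor of bulge stem cells, at 53.5 kb from a 3.57 kb peak, Shh, at 219 kb from a 3.84 kb peak, Msx2, at 264 kb from a 6.49 kb peak, and Gata3 again. Shh and Nfatc1 carried peaks at an end in both lists, Wnt7b and Foxn1 in Eed cKO alone, Msx2 and Gata3 in control alone and Wnt3 in neither. Away from the ends, control peaks covered 4349 bp of the Wnt3 span and 4916 bp of the Foxn1 span.

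Of 42 Polycomb genes, with a median span of 38.2 kb, 4 held new peaks (9.52%) and 1 was nearest to one. Cbx7, a chromobox reader of methylated H3K27, held a 5.21 kb peak, and Phc2 held one of 4.28 kb. Bcor, a subunit of a variant PRC1 complex, held 2 new peaks, the wider of 4.79 kb, and Auts2, a component of another, held 2 with the wider of 3.22 kb. Rybp, the variant PRC1 subunit, lay 131 kb from a 6.90 kb new peak. An end peak was present in both lists at Phc2 and in neither at Cbx7, Bcor, Auts2 and Rybp. Inside their spans, control peaks did cover 5655 bp of Cbx7, 4639 bp of Bcor and 9378 bp of Auts2.

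Among 51 suprabasal and barrier genes, Tgm5 and Grhl3 held new peaks and Hes1 was among the genes nearest to one. Of 26 basal keratinocyte genes, Tfap2c held a 2.33 kb peak and Fgfr2 lay 56.6 kb from one of 5.34 kb.

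Homeobox genes outside the Hox clusters, of which 82 of 116 carried an Eed cKO peak at an end and 103 a control peak, included 4 hosts (3.45%): Cux1, Zfhx3 (1.99 kb), Meis2 (1.92 kb) and Tshz2 (1.71 kb). Another 6 were nearest to a new peak, making 8.62% of the list either, namely Irx2, Pou3f1, En1, Satb1, Msx2 and Isl1. Most of these genes are short, with a median span of 8.76 kb, so the windows at their ends leave little span. Of 69 factors of the forkhead, GATA, T-box, Pax and Sox families, Gata3, Foxp4 (2.85 kb) and Foxn1 were hosts and Sox2, Sox6, Foxo1, Tbx3, Foxp4 and Gata3 were nearest genes. No basic helix-loop-helix or zinc finger developmental factor of 76 was a host, and Hes1, Id1 and Olig1 were nearest genes. Of 39 Hox genes none was a host, and Hoxb1 lay 30.9 kb from a 2.91 kb new peak.

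Among signalling genes, Wnt3 was the only host of 68 WNT, FGF, BMP, GDF, activin and hedgehog ligands, and Bmp7, Wnt7b and Shh were nearest genes. Of 80 growth factor receptors and signalling regulators, the hosts included Smad3 and Tgfbr3, a TGF-β co-receptor (2.63 kb). Smad7, Fgfr2, Axin2, Fzd10 and Fzd6 were nearest genes, of which Axin2, a feedback inhibitor of WNT signalling, lay 17.4 kb from a 5.24 kb peak. Of 87 axon guidance and adhesion genes, Cdh4, Epha10 (5.44 kb) and Cdh13 (1.25 kb) were hosts and Efnb2, Epha4, Nrp2, Sema6d and Nrp1 nearest genes. Of 76 extracellular matrix genes, Col27a1 (6.52 kb), Lama1 (3.96 kb), Lamc3 (2.57 kb) and Adamts8 (2.33 kb) were hosts. Of 94 ion channel genes, Kcnn3 (5.47 kb) and Cacna1a (1.45 kb) were, and of 14 cell cycle inhibitors and D cyclins none was, although Ccnd1 lay 2.13 kb from a 3.92 kb new peak.

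Genes of other cell types gave the following counts, to be read beside the 0.845% of all protein-coding genes that were hosts and the 1.06% that were nearest genes. None of 19 leukocyte genes and none of 14 melanocyte genes was a host or a nearest gene, and the same was true of 20 germline and 30 housekeeping genes. Of 14 endothelial genes, Flt1 (5.31 kb) and Vwf (1.38 kb) were hosts (14.3%), the highest host share of the 21 lists. That list is small, and its median span is 53.7 kb against 17.2 kb for all protein-coding genes. Flt1 spans 165 kb and Vwf 134 kb, and 2.85% of all protein-coding genes of 100 to 200 kb were hosts. Of 24 dermal fibroblast genes, En1 and Thy1 were nearest genes (8.33%), and of 20 Merkel cell genes, Sox2 and Isl1 were (10.0%), at 111 and 296 kb. The sort used EpCAM, an epithelial surface protein, and Merkel cells are epithelial too. How far the sort removed other cell types was not assessed here. Peaks carry no share of cells, so the part of other cell types in the new peaks was not tested.

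Across chromosomes, new peaks made up between 11.6% of the Eed cKO peaks (chromosome 10) and 27.0% (chromosome 17) of the autosomes. On chromosome X they were 11 of 27 (40.7%, 24.5 to 59.3), among them both peaks in Bcor and the isolated one in Atp2b3. Without chromosome X there were 461 new peaks, 43.2% of them inside spans. The labels do not state the sex of the mice.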

How the data were processed

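Per the labels, H2AK119ub ChIP-seq covered 2 libraries of Eed cKO and 2 of control epidermal progenitors. The authors deposited 1 list of peak positions per genotype in mm10, per the file headers, with no score, height or p-value. The tools listed are SAMtools 1.9 and Bowtie2 2.3.3.1, per the submitters' processing notes. Which caller and threshold made the peaks, whether inputs entered and how libraries were joined is not given in the sources used here, and read depth is unknown. Inputs and the Ring1a/b 2KO library were not analysed here.

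Peaks were set against each other (1 shared bp counted as overlap) and against RefSeq spans of 21887 protein-coding genes (GRCm38), with 2000 bp on either side of each end. Distances are the bases between features, and positions count from 1. Annotated starts came from RefSeq promoter sequences on mm10 (17492 protein-coding and 9533 lncRNA genes, none on chromosome 18), and 140 of 185 host genes took their strand from them. No genome sequence of the peaks was used. Shares carry 95% Wilson intervals and medians order-statistic intervals. No test was run. The overlap code was checked on simulated data, where 800 of 800 planted peaks were classified correctly. The members and the 21 gene lists were chosen with earlier results of these data known. Genes were named by a rule: hosts of the 15 widest peaks inside spans, neighbours of the 10 widest outside, genes holding 3 or more, list members that were hosts or nearest genes (up to 6 per list), genes at the 3 peaks nearest to and 3 farthest from a control peak, and Eed. Some genes that the rule names are left out of the text. Computation used scipy 1.17.1, pandas 2.3.3, numpy 2.4.6 and matplotlib 3.10.9 in Python 3.11.15.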

Additional observations from a re-analysis of the deposited data

How the results depend on the processing

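Of 73 values recomputed under an alternative, 57 kept within 1.5 times the reported count, or within the reported interval, and 16 did not. With the control list trimmed to its widest peaks there were 753 new peaks, 326 inside and 427 outside gene spans, at a median of 131 kb from a control peak, and of 287 host genes 27.9% had a control peak at an end. With only the wider Eed cKO peaks there were 127 new peaks, 56 inside and 71 outside, with median widths of 6.72 kb inside and 7.26 kb outside, at a median of 35.5 kb from a control peak, and of 53 host genes 45.3% had a control peak at an end. Fewer control peaks, or fewer Eed cKO peaks, enter by construction. Counting control peaks within 5000 bp as shared gave a median distance of 79.4 kb, and windows of 5000 bp at gene ends gave 45.1% of hosts with a control peak at an end. Windows at the ends of all annotated genes, non-coding ones included, left 382 new peaks. The remaining alternatives (a gap of 1000 bp, windows of 1000 bp, merging within 1000 bp and autosomes only) moved no value that far.

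No paired analysis was possible because each genotype gave 1 peak list with no replicate number, and for the same reason leaving out single libraries was not run. The lists carry no scores or read counts, so the depth behind each peak is unknown.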
